A study of Mus musculus with 18 samples.

Results

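The Toll-like receptor genes of mouse liver were examined across diet and hepatic expression of human lysosomal acid lipase (LAL, encoded by LIPA), the enzyme that hydrolyzes cholesteryl esters and triacylglycerols in the lysosome. The set comprised 10 genes (Tlr1, Tlr2, Tlr3, Tlr4, Tlr5, Tlr6, Tlr7, Tlr8, Tlr9 and Tlr13), taken by gene symbol from a read count table of 55487 genes, and each symbol matched 1 row. RNA sequencing had been carried out on livers of male C57BL/6J mice in 3 groups of 6. All 18 mice had been bought at 7 weeks of age and had received an AAV8 vector 1 week before 16 weeks of diet, and livers were collected after a 4 h fast. CON-GFP mice received the GFP vector and a purified control diet. FPC-GFP mice received the GFP vector and the FPC diet, a Western-type diet high in fat with added fructose, palmitate and cholesterol, together with fructose-glucose water. FPC-LIPA mice received the LIPA vector and the FPC diet. Both vectors carried the TBG promoter, which is active in hepatocytes, so that no group was free of vector, and no sequenced group combined the LIPA vector with the control diet.

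Toll-like receptors are membrane proteins that bind molecules typical of microbes, or of damaged cells, through a horseshoe-shaped domain of leucine-rich repeats and signal through an intracellular TIR domain. Receptors of the cell surface bind lipids and proteins, whereas those of the endosome and lysosome bind nucleic acids. Both kinds recruit adaptors, MyD88 in most cases, which lead through kinases to NF-κB, AP-1 and interferon regulatory factors and so to cytokine genes. In liver they are best known from Kupffer cells, recruited monocytes, dendritic cells and sinusoidal endothelial cells, and several are also present in hepatocytes.

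The genes lie on 7 chromosomes of GRCm38 (GENCODE M21 annotation). The surface receptors are Tlr1 (ENSMUSG00000044827, chr5:64924679-64933563, minus strand), Tlr6 (ENSMUSG00000051498, chr5:64952031-64960097, minus), Tlr2 (ENSMUSG00000027995, chr3:83836272-83841767, minus), Tlr4 (ENSMUSG00000039005, chr4:66827584-66930284, plus) and Tlr5 (ENSMUSG00000079164, chr1:182954788-182976044, plus). The endosomal receptors are Tlr3 (ENSMUSG00000031639, chr8:45395665-45411080, minus), Tlr7 (ENSMUSG00000044583, chrX:167304929-167330558, minus), Tlr8 (ENSMUSG00000040522, chrX:167242696-167264329, minus), Tlr9 (ENSMUSG00000045322, chr9:106222598-106226883, plus) and Tlr13 (ENSMUSG00000033777, chrX:106143204-106160493, plus). Tlr1 and Tlr6 are neighbors on chromosome 5, and Tlr7 and Tlr8 are neighbors on the X chromosome.

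Tlr1 and Tlr6 also share sequence, which bears on how far their counts can be told apart. Of the 50-base words of Tlr1 transcripts 15.4% occurred in transcripts of another gene, and of those of Tlr6 12.3%, mostly in one another. The longest identical run between them measured 229 bases and lay wholly in coding sequence of both genes, at chr5:64925537-64925765 in Tlr1 and chr5:64953828-64954056 in Tlr6. For the other pairs of the 10 genes only the longest transcript of each was compared, in the same orientation, and no shared run exceeded 18 bases. The run is shown because a read pair that falls wholly inside it cannot be placed in one gene or the other.
Tlr1 and Tlr6, shared coding run: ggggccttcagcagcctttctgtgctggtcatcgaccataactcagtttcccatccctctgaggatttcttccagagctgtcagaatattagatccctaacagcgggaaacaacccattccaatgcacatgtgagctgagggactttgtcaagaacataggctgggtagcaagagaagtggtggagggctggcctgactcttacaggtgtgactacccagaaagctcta
Tlr3 overlaps the antisense gene Gm45542 by 381 exon bases, and the strand setting of the read counting was not stated, so reads of that stretch could belong to either gene. For Tlr2, Tlr5, Tlr7, Tlr8, Tlr9 and Tlr13 no 50-base word occurred in another gene.

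RefSeq promoter windows (GRCm38.p6, 250 bases before to 50 bases after a start) were given for 8 of the 10 genes, with Tlr4 and Tlr7 as the exceptions. They were searched on both strands for GGAAGT, the core bound by ETS factors such as PU.1, for AANNGAAA, a core of interferon regulatory factor sites, and for the NF-κB consensus. GGAAGT occurred in 23.8%, AANNGAAA in 23.9% and the NF-κB consensus in 8.46% of 32851 promoter windows of the same length. Tlr2 held all 3 motifs, with 2, 2 and 3 matches, of which 2 NF-κB matches overlapped. The downstream of 2 Tlr6 windows held 1 GGAAGT and 4 AANNGAAA matches, some of them overlapping. The other Tlr6 window (chr5:64959999-64960298, not shown) held 1 GGAAGT and no match of the remaining motifs. No match of any of the 3 was found in the windows of Tlr5, Tlr8 and Tlr13. The windows of Tlr13 and Tlr8, the genes that rose on the FPC diet, and of Tlr2 and Tlr6 are shown, with matches to the 3 motifs in capitals and the remainder in lower case.
Tlr13, chrX:106143025-106143324, plus strand: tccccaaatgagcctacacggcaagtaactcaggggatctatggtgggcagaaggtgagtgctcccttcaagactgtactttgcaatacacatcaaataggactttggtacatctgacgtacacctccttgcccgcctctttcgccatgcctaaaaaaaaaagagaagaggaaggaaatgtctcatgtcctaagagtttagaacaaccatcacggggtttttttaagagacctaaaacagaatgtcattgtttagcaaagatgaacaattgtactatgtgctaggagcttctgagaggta
Tlr8, chrX:167264280-167264579, minus strand: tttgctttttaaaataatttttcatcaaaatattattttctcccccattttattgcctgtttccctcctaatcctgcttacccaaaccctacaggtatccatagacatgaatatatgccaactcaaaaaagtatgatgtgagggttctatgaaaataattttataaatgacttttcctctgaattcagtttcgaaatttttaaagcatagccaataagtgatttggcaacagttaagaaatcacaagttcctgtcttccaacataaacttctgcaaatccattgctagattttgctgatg
Tlr2, chr3:83841559-83841858, minus strand: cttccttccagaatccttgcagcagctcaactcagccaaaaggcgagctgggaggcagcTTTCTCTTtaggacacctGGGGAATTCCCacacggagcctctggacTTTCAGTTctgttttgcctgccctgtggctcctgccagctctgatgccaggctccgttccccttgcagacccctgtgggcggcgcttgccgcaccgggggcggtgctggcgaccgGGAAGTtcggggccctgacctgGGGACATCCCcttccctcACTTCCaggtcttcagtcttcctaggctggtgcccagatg
Tlr6, chr5:64959117-64959416, minus strand: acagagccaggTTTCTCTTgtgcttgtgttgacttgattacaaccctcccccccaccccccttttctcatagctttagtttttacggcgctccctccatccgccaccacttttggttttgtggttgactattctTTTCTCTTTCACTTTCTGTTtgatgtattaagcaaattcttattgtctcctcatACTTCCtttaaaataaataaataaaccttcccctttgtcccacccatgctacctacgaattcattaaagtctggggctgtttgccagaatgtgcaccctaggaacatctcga
These letter matches do not show binding. In FPC-LIPA against FPC-GFP, Tlr6 (with matches) and Tlr13 (without) met the thresholds, whereas Tlr2 (with) and Tlr5 (without) did not. In FPC-GFP against CON-GFP the genes that met them, Tlr13 and Tlr8, held no match, and Tlr2, Tlr5 and Tlr6 did not meet them.

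Total counts ranged from 16632146 to 37739301 per library. Counts on the 84 cytosolic ribosomal protein genes took 1.73 to 2.51% of the library in CON-GFP, 1.41 to 1.77% in FPC-GFP and 2.13 to 8.16% in FPC-LIPA, where livers 36, 37 and 39 stood apart with 6.44, 8.09 and 8.16%. Liver 37 also carried a sample sheet number far from those of the other libraries and the lowest total count. Results that rest on these livers are given with and without them, and the part of library quality in them was not tested. The count table maps reads to mouse genes, and mouse Lipa, at 336 ± 59.3 CPM (read counts as a rate over the library total, scaled by TMM factors) in FPC-GFP and 300 ± 44.8 in FPC-LIPA (mean ± SD, n = 6), does not check the human transgene. The hepatocyte markers Alb and Hnf4a were detected in every liver, with Alb at 57550 ± 9418, 52150 ± 7849 and 44220 ± 8489 CPM and Hnf4a at 540 ± 137, 489 ± 107 and 247 ± 128 CPM in CON-GFP, FPC-GFP and FPC-LIPA.

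Toll-like receptor transcripts were scarce in all livers. Summed over the 10 genes they amounted to 22.3 ± 3.95 CPM in CON-GFP, 32.5 ± 7.57 in FPC-GFP and 44.2 ± 10.9 in FPC-LIPA (SD, n = 6). Per kilobase of exon, a scale on which genes can be set side by side, the flagellin receptor Tlr5 was highest of the 10 in CON-GFP (1.88 CPM per kb) and FPC-GFP (2.66), where it exceeded the next gene in 6 of 6 and in 5 of 6 livers. In FPC-LIPA the lipoprotein receptor Tlr2 was highest (2.09 CPM per kb), and it exceeded the next gene, Tlr7 (1.57), in 4 of 6 livers. Tlr7, Tlr1 and Tlr5 followed there at 1.57, 1.55 and 1.54 CPM per kb and did not differ beyond their spread. The order in FPC-LIPA depended on the liver. In livers 31, 33 and 34 Tlr2 (1.7, 2.05 and 2.17 CPM per kb) and Tlr5 (2.18, 1.79 and 1.92) did not keep 1 order. Tlr7 was at 1.13, 0.58 and 1.1 in these livers, against 3.91 in liver 37.

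The lower end of the order was held by the same gene throughout. Tlr9, the receptor for unmethylated CpG DNA, was at 0.0307, 0.0752 and 0.0646 CPM per kb in CON-GFP, FPC-GFP and FPC-LIPA. Tlr3, the receptor for double-stranded RNA, was the second of the 10 in CON-GFP (1.06 CPM per kb), the third in FPC-GFP (0.997) and the sixth in FPC-LIPA (1.13). Its mean per kb stayed between 0.997 and 1.13 while the means of other genes passed it. In CON-GFP, Tlr13 and Tlr7 (0.270 and 0.263 CPM per kb) could not be ordered, with Tlr13 the higher in 3 of 6 livers, and neither could Tlr8 and Tlr4 in FPC-GFP (0.291 and 0.286), with Tlr8 the higher in 2 of 6.

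**Figure D1:**
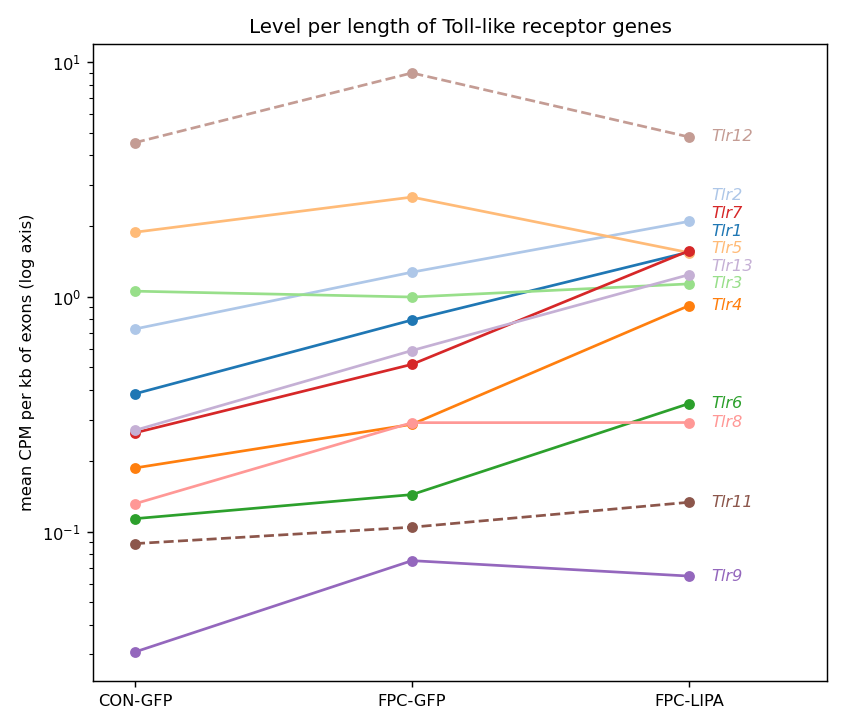
Mean CPM per kb of merged exons (log axis, n = 6 livers per group) of the 10 genes (solid lines) and of Tlr11 and Tlr12 (dashed lines) in the 3 groups. Tlr5 led the 10 genes in CON-GFP and FPC-GFP and Tlr2 in FPC-LIPA, while Tlr9 stood lowest in every group.

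The first comparison, FPC-GFP against CON-GFP, addresses the effect of the FPC diet. Tlr13 and Tlr8, endosomal receptors for RNA, rose about 2-fold, and none of the 9 genes tested fell past the thresholds. A gene was called differentially expressed (DE) at an adjusted p under 0.05 and a change of at least 2-fold by edgeR's quasi-likelihood test. Of the 10 genes 9 passed the filter on low counts, and 2 of these were DE and higher (background: 4.76% of 14307 genes tested), while none was DE and lower (background: 2.44%). The median log2 fold change of the 9 was 0.78, against 0.01 over all genes tested, and 8 of the 9 estimates were above 0. With an unadjusted p under 0.05 there were 6 (all genes tested: 38.1%).

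Among the endosomal receptors, Tlr13, which binds bacterial ribosomal RNA, ranged from 0.978 CPM through a median of 1.08 to 1.56 in CON-GFP and from 1.495 through 2.66 to 3.21 in FPC-GFP. The groups overlapped only through the lowest FPC-GFP liver (11), and Tlr13 rose by 1.11 ± 0.22 on the log2 scale (± SE, adjusted p = 0.0027). Tlr8, a receptor for RNA breakdown products, ranged from 0.258 through 0.469 to 0.709 CPM in CON-GFP and from 0.513 through 0.889 to 1.73 in FPC-GFP. Of the FPC-GFP livers 4 lay above the highest CON-GFP liver, and the log2 fold change was 1.13 ± 0.35 (adjusted p = 0.0291). The Tlr8 call was lost without CON-GFP 2, CON-GFP 8, FPC-GFP 12 or FPC-GFP 19, each left out alone, in 1 fit of all 18 libraries and among sample sheet numbers 55 to 68, at adjusted p from 0.0531 to 0.0738. Tlr8 was counted at only 4 to 57 reads per liver in these groups.

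Tlr7, the receptor for single-stranded RNA, ranged from 0.774 through 0.946 to 1.77 CPM in CON-GFP and from 1.37 through 2.19 to 3.00 in FPC-GFP. Its log2 fold change of 0.97 ± 0.27 had an adjusted p of 0.0178 but fell just short of 2-fold (1.96-fold), so that it was not DE. Tlr3 ranged from 3.87 through 5.01 to 7.48 CPM in CON-GFP and from 4.37 through 4.96 to 6.51 in FPC-GFP. These ranges lay within one another, with a log2 fold change of -0.09 ± 0.18 (adjusted p = 0.751).

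None of the 5 surface receptors met the thresholds on the FPC diet. Tlr2 ranged from 0.902 through 2.62 to 3.07 CPM in CON-GFP and from 2.61 through 3.96 to 4.55 in FPC-GFP. The log2 fold change of Tlr2 was 0.78 ± 0.27 (adjusted p = 0.0509). Its partners in the recognition of lipopeptides are Tlr1 and Tlr6. Tlr1 ranged from 0.856 through 1.32 to 1.97 CPM in CON-GFP and from 0.498 through 2.62 to 5.22 in FPC-GFP, with a log2 fold change of 1.04 ± 0.40 (adjusted p = 0.0712). The FPC-GFP livers thus spanned 10.5-fold for Tlr1, the widest range of any of the 10 genes in that group. Tlr6 was at 0.244 to 0.645 CPM in CON-GFP and at 0.205 to 0.900 in FPC-GFP, with log2 fold change 0.37 ± 0.35 (adjusted p = 0.455).

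Tlr4, the receptor for lipopolysaccharide, ranged from 0.634 through 1.03 to 1.46 CPM in CON-GFP and from 1.26 through 1.62 to 1.88 in FPC-GFP. Its estimate was 0.61 ± 0.23 (log2 fold change, adjusted p = 0.0676), with 4 FPC-GFP livers above every CON-GFP liver. Tlr5 ranged from 5.38 through 8.35 to 12.3 CPM in CON-GFP and from 4.77 through 13.6 to 17.1 in FPC-GFP. Its groups overlapped widely, and its log2 fold change was 0.48 ± 0.26 (adjusted p = 0.192). No gene of the 9 had groups that did not overlap in the higher direction (background: 6.19% of genes tested).

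**Figure D2:**
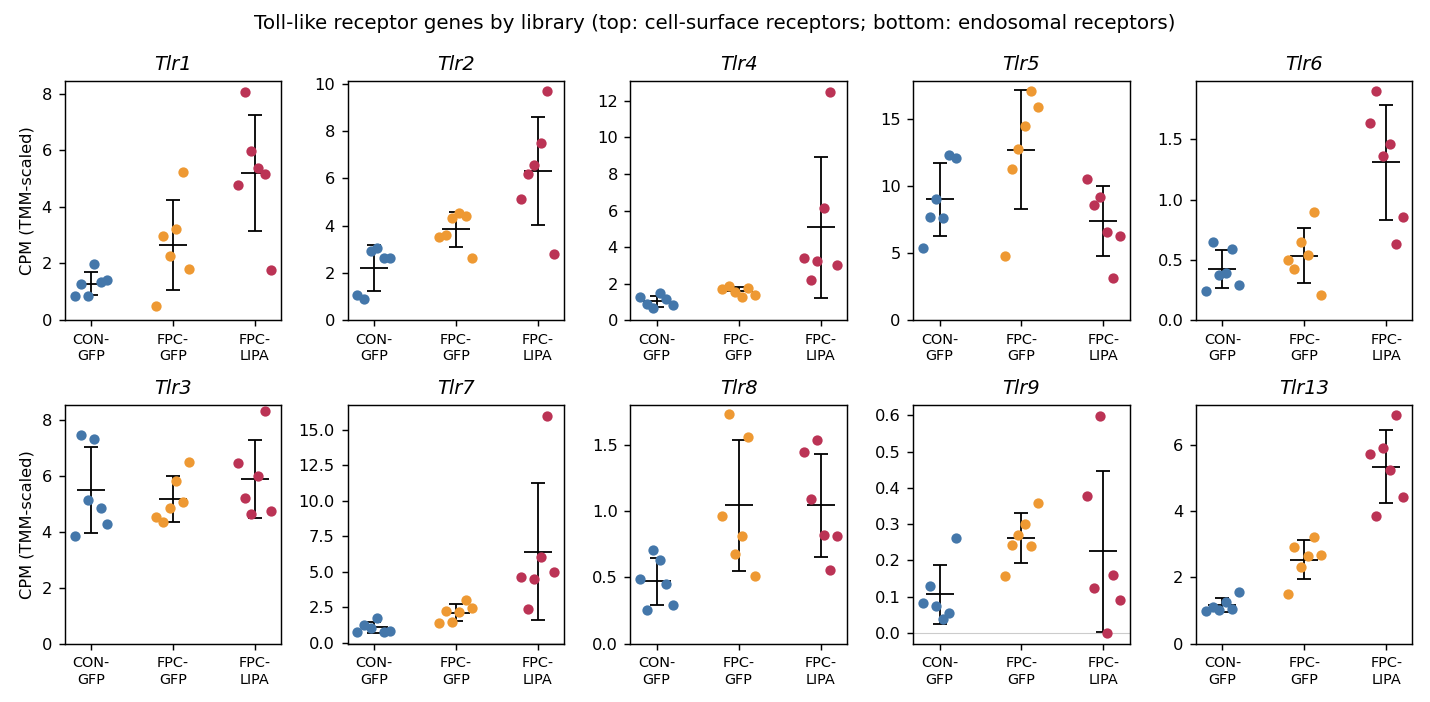
CPM of each gene in each of 18 livers (points) with the group mean and SD (bars), each panel on its own linear axis that includes 0. Tlr4 and Tlr13 lie higher in every FPC-LIPA liver than in any FPC-GFP liver, Tlr7 has 1 FPC-LIPA liver at 16.0 CPM, and Tlr5 is highest in FPC-GFP.

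The second comparison, FPC-LIPA against FPC-GFP, addresses LIPA expression on the FPC diet. Tlr4, Tlr7, Tlr6 and Tlr13 rose between 2.1-fold and 3.16-fold in FPC-LIPA livers, and none of the 9 genes tested fell past the thresholds. Of the 9 genes tested 4 were DE and higher (background: 10.3% of 14620 genes) and none was DE and lower (background: 1.11%). The median log2 fold change of the 9 was 0.96, against 0.04 over all genes tested. An unadjusted p under 0.05 was found for 7 of them (all genes tested: 39.8%). The groups did not overlap for 2 of the 9, Tlr4 and Tlr13, both higher (background: 3.81%).

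Tlr4 ranged from 2.22 through 3.31 to 12.5 CPM in FPC-LIPA, and every FPC-LIPA liver lay above the highest FPC-GFP liver (1.88). The log2 fold change of Tlr4 was 1.66 ± 0.38 (adjusted p = 0.0162). The highest value came from liver 37 and the next, 6.15 CPM, from liver 36. Without liver 37 the log2 fold change was 1.17 ± 0.26 (adjusted p = 0.0276), and without livers 36, 37 and 39 it was 0.89 ± 0.24 (adjusted p = 0.0862).

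Tlr7 was moved by the same library. It ranged from 2.37 through 4.78 to 16.0 CPM in FPC-LIPA, where liver 37 held the highest value and 5 of 6 livers lay above the highest FPC-GFP liver (3.00). Its log2 fold change of 1.59 ± 0.39 (adjusted p = 0.0188) became 1.08 ± 0.27 without liver 37 (adjusted p = 0.0339) and 0.86 ± 0.30 without livers 36, 37 and 39 (adjusted p = 0.151).

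Tlr13 ranged from 3.85 through 5.48 to 6.91 CPM in FPC-LIPA, with all 6 livers above the highest FPC-GFP liver (3.21), and the livers of the group spanned only 1.79-fold. The log2 fold change was 1.07 ± 0.22 (adjusted p = 0.0136), with 1.03 ± 0.25 without livers 36, 37 and 39 (adjusted p = 0.0658). Without liver 37 it was 0.98 ± 0.22 (adjusted p = 0.0276), just under 2-fold, so that Tlr13 was no longer DE, whereas Tlr4, Tlr6 and Tlr7 were. Tlr6 ranged from 0.635 through 1.41 to 1.90 CPM in FPC-LIPA, and 4 of 6 livers lay above every FPC-GFP liver. Here liver 37 was the lowest of the group, and the log2 fold change of 1.29 ± 0.37 (adjusted p = 0.028) was 1.59 ± 0.37 without livers 36, 37 and 39 (adjusted p = 0.0604). The Tlr6 call was also lost without FPC-GFP 11, 12, 13, 16 or 20 or FPC-LIPA 36, each left out alone, without a filter and with library size alone, at adjusted p from 0.0514 to 0.0751. Tlr6 was counted at 8 to 77 reads per FPC-LIPA liver and shares the coding run printed above with Tlr1.

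With livers 36, 37 and 39 left out, none of the genes was DE by edgeR's quasi-likelihood test, against 6 of 10 at an unadjusted p under 0.05, and the number of DE genes over the whole table fell from 1671 to 116. Among libraries with sample sheet numbers 55 to 68 (4 CON-GFP, 5 FPC-GFP and 5 FPC-LIPA livers) none was DE in this comparison either, with 4 of 9 at an unadjusted p under 0.05. Within those libraries the log2 fold changes were 1.13 ± 0.28 for Tlr4, 1.12 ± 0.29 for Tlr7, 1.26 ± 0.33 for Tlr6 and 0.99 ± 0.24 for Tlr13, with adjusted p from 0.0656 to 0.0693.

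The remaining 5 genes tested did not meet the thresholds. Tlr2 ranged from 2.80 through 6.37 to 9.68 CPM in FPC-LIPA, with 5 of 6 livers above the highest FPC-GFP liver and a log2 fold change of 0.71 ± 0.26 (adjusted p = 0.0592). Tlr1 ranged from 1.76 through 5.27 to 8.07 CPM, with a log2 fold change of 0.96 ± 0.43 (adjusted p = 0.109). Liver 39 was the lowest of the group for both Tlr1 and Tlr2. Tlr3 ranged from 4.66 through 5.61 to 8.33 CPM, with 0.19 ± 0.19 (log2 fold change, adjusted p = 0.49). Tlr8, one of the genes that rose on the diet, ranged from 0.556 through 0.953 to 1.54 CPM in FPC-LIPA, inside its FPC-GFP range, and its log2 fold change was 0.01 ± 0.36 (adjusted p = 0.978).

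Tlr5 was the only one of the 9 with a negative estimate in this comparison under TMM scaling. It ranged from 3.17 through 7.59 to 10.5 CPM in FPC-LIPA, against a median of 13.6 in FPC-GFP, and its log2 fold change was -0.77 ± 0.30 (adjusted p = 0.0761). Liver 37, highest for Tlr4 and Tlr7, was lowest for Tlr5. Without livers 36, 37 and 39 the estimate was -0.43 ± 0.31 (adjusted p = 0.483).

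**Figure D3:**
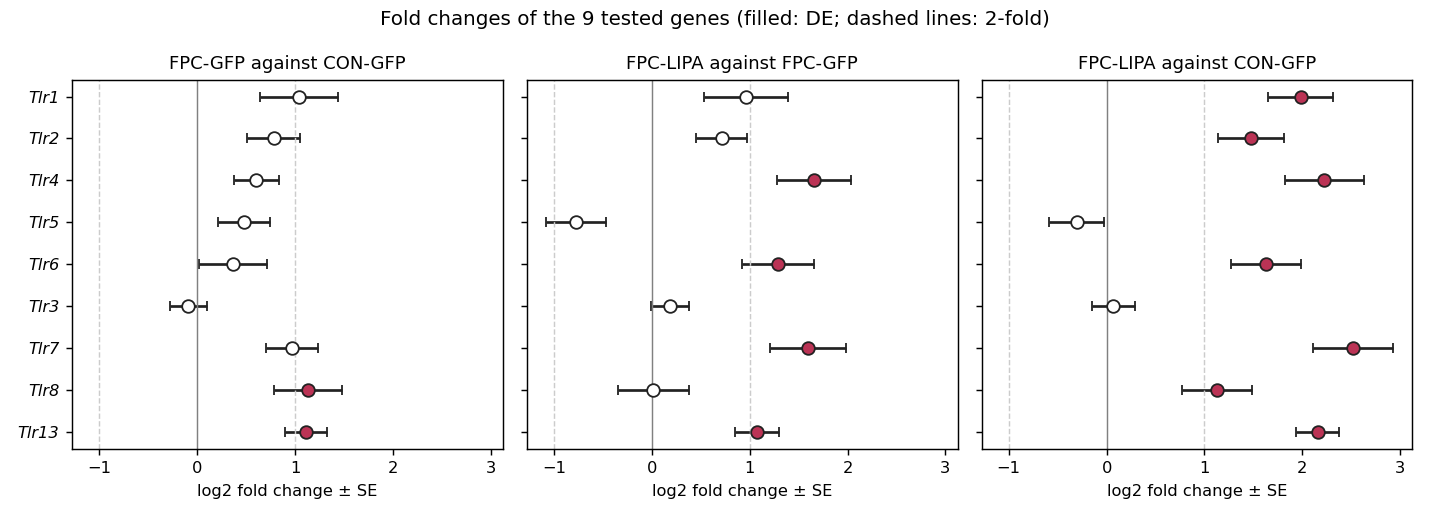
Log2 fold changes with SE of the 9 tested genes in the 3 comparisons (edgeR, n = 6 livers per group), with DE genes filled and 2-fold changes dashed. The DE genes number 2, 4 and 7, and Tlr5 and Tlr3 stay unfilled in all 3 panels.

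The third comparison, FPC-LIPA against CON-GFP, joins diet and transgene and shares its libraries with both others. Of the 9 genes 7 were DE and higher (background: 11.8% of 14433 genes), with Tlr3 and Tlr5 as the exceptions, and none was DE and lower (background: 3.25%). The groups did not overlap for 3 of the 9, namely Tlr4, Tlr7 and Tlr13, all higher (background: 6.26%). The median log2 fold change was 1.63, against 0.04 over all genes tested.

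The values ranged from 1.13 ± 0.36 for Tlr8 (adjusted p = 0.0341) to 2.52 ± 0.41 for Tlr7 (adjusted p = 0.000679) on the log2 scale. Tlr13 had the smallest adjusted p, at 2.64e-05 for a log2 fold change of 2.16 ± 0.22. Tlr4 reached 2.23 ± 0.41 (adjusted p = 0.00167). Among the lipopeptide receptors the log2 fold changes were 1.98 ± 0.33 for Tlr1, 1.63 ± 0.36 for Tlr6 and 1.47 ± 0.34 for Tlr2. Without livers 36, 37 and 39 all 7 were again DE, and among sheet numbers 55 to 68 there were 5, without Tlr2 and Tlr8. The Tlr8 call was also lost without CON-GFP 1, 2, 7 or 8 or FPC-LIPA 31 or 34, each left out alone, and without a filter, at adjusted p from 0.0675 to 0.0922. Tlr5 stood at -0.31 ± 0.28 (adjusted p = 0.431) and, without livers 36, 37 and 39, at 0.06 ± 0.24. Tlr3 stood at 0.07 ± 0.22 (adjusted p = 0.846).

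Tlr9 did not pass the filter on low counts in any of the 3 comparisons. Its counts were 1 to 8 reads per liver in CON-GFP, 5 to 10 in FPC-GFP and 0 to 19 in FPC-LIPA, and 5 CON-GFP and 3 FPC-LIPA livers had 3 reads or fewer. FPC-LIPA liver 36 had none, and liver 34 the highest value (0.599 CPM). When no filter was applied, its log2 fold change in FPC-GFP against CON-GFP was 1.24 ± 0.53 (adjusted p = 0.144). The unfiltered estimates were -0.22 ± 0.69 for FPC-LIPA against FPC-GFP and 1.01 ± 0.81 for FPC-LIPA against CON-GFP (adjusted p = 0.855 and 0.401). It also passed the filter once livers 36, 37 and 39 were left out of FPC-LIPA against FPC-GFP, at 0.49 ± 0.51 (adjusted p = 0.647). No difference in Tlr9 was detectable at this depth.

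The remaining receptors of the mouse family are Tlr11 and Tlr12, which recognize the protozoan protein profilin. By group mean Tlr12 (chr4:128615443-128618619) exceeded every one of the 10 genes per length, at 4.53 CPM per kb in CON-GFP, 8.97 in FPC-GFP and 4.79 in FPC-LIPA. In FPC-LIPA liver 37, however, Tlr12 stood at 1.77 CPM per kb, below Tlr7 (3.91), Tlr2 (3.21) and Tlr4 (2.26). It ranged from 6.23 through 15.8 to 18.8 CPM in CON-GFP, from 19.2 through 29.5 to 38.8 in FPC-GFP and from 5.64 through 15.2 to 26.4 in FPC-LIPA. All FPC-GFP livers lay above all CON-GFP livers, at a log2 fold change of 0.98 ± 0.25 (adjusted p = 0.0124), just under 2-fold. The estimate for FPC-LIPA against FPC-GFP was -0.90 ± 0.33 (adjusted p = 0.064), with -0.74 ± 0.30 without liver 37 (adjusted p = 0.102) and -0.38 ± 0.24 without livers 36, 37 and 39 (adjusted p = 0.429). Tlr12 and Tlr5 thus both had negative estimates in FPC-LIPA, with the lowest value of each in liver 37. Tlr11 was low, at 3 to 28 reads per liver.

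The rest of the signaling chain was described by 88 genes in 7 lists ordered by role. In FPC-GFP against CON-GFP 12 of 72 tested were DE and higher (background: 4.76%) and none lower (background: 2.44%). Among sheet numbers 55 to 68 the diet comparison gave 9 of 75, and the calls of Cd180, Ly86, Btk and Irak3 were lost. In FPC-LIPA against FPC-GFP 5 of 77 were DE and higher (background: 10.3%) and none lower (background: 1.11%). Without livers 36, 37 and 39 only Acod1 remained of those 5, and among sheet numbers 55 to 68 none did, with 22 of 78 at an unadjusted p under 0.05. Over the whole table the DE genes fell from 1671 to 116 and 96 under these settings.

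Accessory proteins that present ligands to the receptors accounted for 3 of the 12 on the diet. Cd14, which hands lipopolysaccharide to Tlr4 and its partner, went from 2.077 ± 0.711 CPM in CON-GFP to 7.09 ± 4.20 in FPC-GFP (log2 fold change 1.76 ± 0.34, adjusted p = 0.00276). Cd180, a relative of Tlr4, and Ly86, its binding partner, rose by 1.48 ± 0.38 and 1.12 ± 0.29 on the log2 scale. Ly96 (MD-2), the partner that Tlr4 needs to bind lipopolysaccharide, did not move with the diet (log2 fold change 0.01 ± 0.22, adjusted p = 0.987) and was 3.42 ± 1.02 CPM in FPC-GFP. In FPC-LIPA it ranged from 4.05 to 32.3 CPM, and its log2 fold change was 1.62 ± 0.50 (adjusted p = 0.0365). Cd36, a scavenger receptor that acts with Tlr2 and Tlr6 and also takes up fatty acids, reached 483 ± 378 CPM in FPC-LIPA, against 210 ± 49.0 in FPC-GFP, with log2 fold change 1.21 ± 0.39 (adjusted p = 0.04). Neither Ly96 nor Cd36 was DE in FPC-LIPA against FPC-GFP without liver 37.

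Proteins that move endosomal receptors or cleave them include Unc93b1 and lysosomal proteases. Of these 10 genes the proteases Ctss and Lgmn rose on the diet, by 1.27 ± 0.16 and 1.12 ± 0.14 on the log2 scale (adjusted p = 0.0002 and 0.000234). Ctss went from 20.8 ± 5.04 to 50.5 ± 8.73 CPM. The protease Ctsk rose in FPC-LIPA against FPC-GFP (1.29 ± 0.31, adjusted p = 0.0183), from 0.922 ± 0.222 to 2.26 ± 0.907 CPM.

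Downstream of the receptors the calls are given by role. The background was 4.76% DE and higher and 2.44% DE and lower on the diet, and 10.3% and 1.11% in the LIPA comparison. None of 5 tested adaptors was DE in the diet or the LIPA comparison, and Myd88 stood at 19.4 ± 4.83, 20.3 ± 3.78 and 15.03 ± 5.595 CPM in CON-GFP, FPC-GFP and FPC-LIPA. At an unadjusted p under 0.05 there were 0 and 4 of the 5 adaptors (all genes tested: 38.1 and 39.8%). Of 18 kinases and ubiquitin ligases Btk (1.12 ± 0.30) and Irak3 (1.04 ± 0.30), which restrains MyD88 signaling, rose on the diet on the log2 scale, and none was DE in FPC-LIPA against FPC-GFP, where 14 of 18 estimates were below 0 and 5 had an unadjusted p under 0.05. Of 12 transcription factors Fos, part of AP-1, rose on the diet, from 3.302 ± 0.870 to 14.7 ± 13.3 CPM (adjusted p = 0.00987), and none was DE in FPC-LIPA against FPC-GFP, with 3 at an unadjusted p under 0.05. No inhibitor was DE in either, with 6 of 11 and 4 of 12 at an unadjusted p under 0.05. Dusp1, a phosphatase that shuts off MAP kinases, had a diet estimate of -0.96 ± 0.20 (adjusted p = 0.00423), just short of 2-fold.

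Among 21 genes that Toll-like receptors induce, 9 were tested on the diet and 4 were DE and higher (background: 4.76%). The chemokine Ccl2 went from 0.841 ± 0.363 to 3.63 ± 1.35 CPM (log2 fold change 2.07 ± 0.32, adjusted p = 0.000657), and the adhesion molecule Icam1, the chemokine Cxcl10 and the cytokine Il1b rose by 1.23 ± 0.20, 1.11 ± 0.25 and 1.28 ± 0.39. In FPC-LIPA against FPC-GFP the estimates of Ccl2, Icam1 and Cxcl10 were 0.52 ± 0.31, -0.12 ± 0.23 and 0.23 ± 0.39, and that of Il1b was 1.36 ± 0.47 (adjusted p = 0.0523). Saa3, an acute-phase gene of macrophages, rose there from 12.5 ± 4.05 to 97.9 ± 78.8 CPM (log2 fold change 2.98 ± 0.54, adjusted p = 0.0107). Acod1, which makes itaconate in activated macrophages, rose from 0.442 ± 0.247 to 2.15 ± 2.09 CPM (2.27 ± 0.60, adjusted p = 0.0225). Ifnb1 had no count in CON-GFP or FPC-GFP and Il12a none in CON-GFP or FPC-LIPA.

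Of the 2 most abundant genes of each list, none besides Cd36 and Saa3 was DE in the diet or LIPA comparison. Lbp, the serum protein that carries lipopolysaccharide to Cd14, stood at 104 ± 32.4, 84.4 ± 25.5 and 74.99 ± 16.99 CPM in CON-GFP, FPC-GFP and FPC-LIPA. The proteases Ctsb and Ctsl had diet estimates of 0.36 ± 0.12 and -0.44 ± 0.15 on the log2 scale (adjusted p = 0.041 and 0.0485). Pik3ap1, an adaptor that links the receptors to PI3 kinase, had an estimate of -0.68 ± 0.23 in FPC-LIPA against FPC-GFP (adjusted p = 0.0484), from 64.01 ± 8.46 to 39.98 ± 13.7 CPM. The kinase subunits Chuk and Ikbkg and the factors Jun and Irf3 had adjusted p of 0.122 or more in both comparisons. Tollip, an inhibitor, stood at 59.9 ± 2.33, 51.2 ± 3.17 and 43.0 ± 4.53 CPM. Lcn2, an iron-sequestering protein, was carried by 1 CON-GFP liver at 86.2 CPM against 11.8 to 21 in FPC-GFP.

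**Figure D4:**
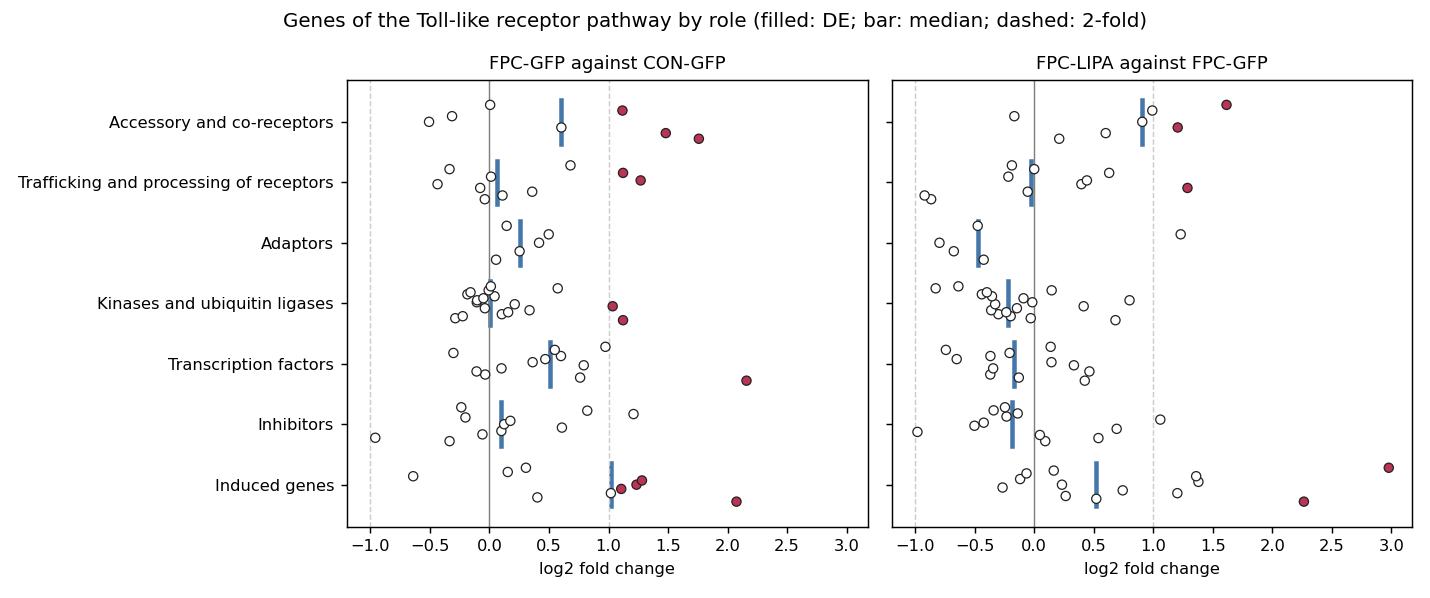
Log2 fold changes of the tested pathway genes by role, for FPC-GFP against CON-GFP (left) and FPC-LIPA against FPC-GFP (right), with DE genes filled and list medians as bars. Filled points number 12 on the left and 5 on the right, with none among the adaptors or inhibitors.

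Markers of leukocytes moved with these groups, and in bulk liver more cells of a type and more RNA per cell cannot be told apart. The summed level of Ptprc, Laptm5, Coro1a and Cd53 ranged from 19.7 to 33.0 CPM in CON-GFP, 33.65 to 61.98 in FPC-GFP and 58.7 to 156 in FPC-LIPA, where liver 37 was highest. Of these 4 genes 1 was DE and higher in the diet and 2 in the LIPA comparison (background: 4.76 and 10.3%). Monocyte and macrophage markers (11 genes) summed to 57.3 to 130 CPM in CON-GFP, 168 to 425 in FPC-GFP and 510 to 936 in FPC-LIPA, and 8 and 7 of the 11 were DE and higher in the diet and LIPA comparisons (background: 4.76 and 10.3%). Kupffer cell markers (8 genes) summed to 260 to 423, 426 to 602 and 450 to 883 CPM. Of these 8, 6 were DE and higher on the diet (background: 4.76%). In FPC-LIPA against FPC-GFP none was DE and higher (background: 10.3%) and 2 were DE and lower (background: 1.11%).

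Markers of other cell types were also summed. Conventional dendritic cell markers (6 genes) summed to 8.64 to 14.8 CPM in CON-GFP, 8.47 to 12.2 in FPC-GFP and 13.7 to 17.1 in FPC-LIPA. None of 5 tested was DE on the diet, and 3 of 6 were DE and higher in the LIPA comparison (background: 10.3%). In the same order T cell markers (8 genes) summed to 3.5 to 5.93, 2.22 to 5.34 and 4.35 to 10.5 CPM. NK cell markers (6 genes) summed to 0.652 to 1.77, 0.410 to 1.21 and 1.21 to 6.19 CPM. B cell markers (8 genes) summed to 2.97 to 9.25, 1.96 to 11.4 and 9.84 to 25.9 CPM, and neutrophil markers (9 genes) to 1.92 to 4.41, 2.84 to 5.94 and 7.25 to 21.4 CPM, with the defining marker Ly6g at 0 in every CON-GFP and FPC-LIPA liver. Sinusoidal endothelial markers (7 genes) summed to 189 to 291, 233 to 279 and 291 to 406 CPM. None of them was DE in the diet or LIPA comparison (background: 4.76 and 10.3% DE and higher). Stellate cell markers (7 genes) summed to 302 to 1077 CPM in FPC-LIPA, where liver 37 was again highest, against 224 to 291 in FPC-GFP. Of 7 hepatocyte markers 2 were DE and lower on the diet and 1 in FPC-LIPA against FPC-GFP (background: 2.44 and 1.11%). Of 6 markers of plasmacytoid dendritic cells, which are known for Tlr7 and Tlr9, none was DE on the diet (2 tested). In the LIPA comparison 1 of 3 tested was DE and higher (background: 10.3%). Red blood cell markers (5 genes) summed to 297 to 583, 283 to 474 and 520 to 2674 CPM. The part of any of these cell types in the receptor levels was not tested.

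Set against the summed leukocyte markers of the same liver, the receptors gave different shares. Tlr13 equaled 4.44 ± 0.745% of the leukocyte sum in CON-GFP, 5.39 ± 0.721% in FPC-GFP and 6.21 ± 1.80% in FPC-LIPA. Tlr1 equaled 4.83 ± 0.947, 5.29 ± 2.35 and 5.76 ± 2.1%, and Tlr2 8.12 ± 2.93, 8.29 ± 1.58 and 6.93 ± 2.07%. These values overlapped between groups. Tlr7 and Tlr4 reached 6.78 ± 2.95 and 5.37 ± 2.63% in FPC-LIPA, from 4.47 ± 0.889 and 3.5 ± 0.867% in FPC-GFP, and their ranges overlapped as well (2.24 to 10.2% against 3.14 to 5.82% for Tlr7, 2.1 to 8.88% against 2.55 to 5% for Tlr4). Both shares were higher in each of livers 36, 37 and 39 than in livers 31, 33 and 34. In livers 36, 37 and 39 Tlr7 was at 6.05, 16 and 4.97 CPM and Tlr4 at 6.15, 12.5 and 3.03, beside leukocyte sums of 69.2, 156 and 58.7. In livers 31, 33 and 34 Tlr7 was at 4.6, 2.37 and 4.47 CPM and Tlr4 at 3.4, 2.22 and 3.21, beside 72.9, 105.7 and 94.85. Tlr5, in contrast, went from 34.3 ± 9.49% in CON-GFP to 26.7 ± 7.96% in FPC-GFP and 9.07 ± 4.04% in FPC-LIPA, and its ranges in the last 2 groups met only at 14.2 to 14.3%. Against the monocyte and macrophage sum, Tlr13 equaled 1.34 ± 0.277, 1.10 ± 0.321 and 0.815 ± 0.221%, a lower share in each successive group mean. On that scale Tlr7 equaled 0.900 ± 0.285% in FPC-GFP and 0.892 ± 0.447% in FPC-LIPA, and Tlr4 0.704 ± 0.207 and 0.712 ± 0.376%. Relative to the Kupffer cell sum, Tlr13 went from 0.496 ± 0.128% in FPC-GFP to 0.834 ± 0.216% in FPC-LIPA. There Tlr7 went from 0.406 ± 0.107 to 0.978 ± 0.616% and Tlr4 from 0.307 ± 0.0399 to 0.767 ± 0.492%. The ranges of both groups overlapped for each gene. Mean shares of Tlr1, Tlr2 and Tlr6 also rose on this scale, whereas those of Tlr3, Tlr5, Tlr8 and Tlr9 fell.

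**Figure D5:**
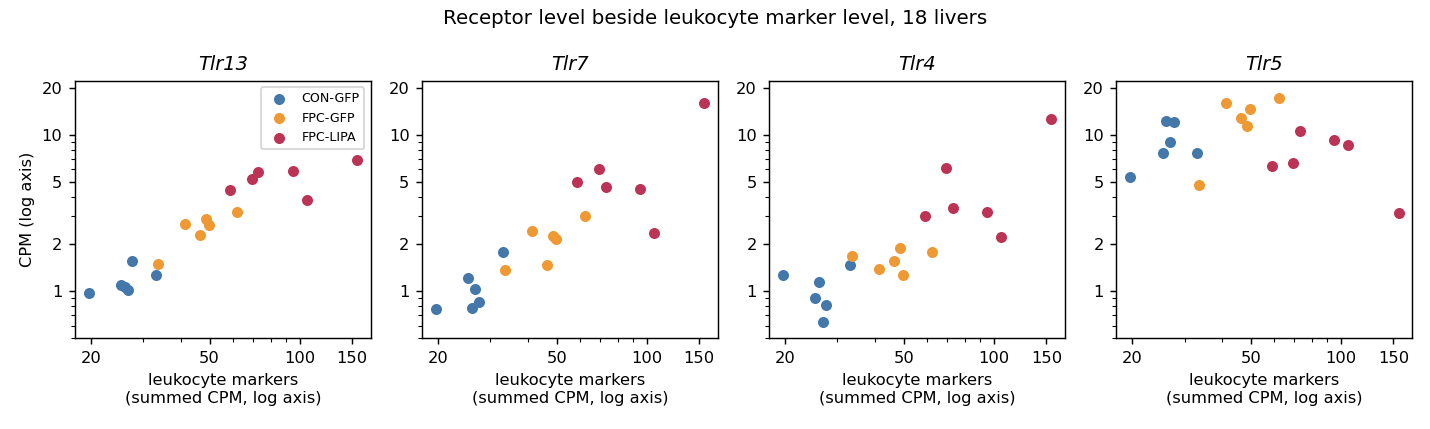
CPM of Tlr13, Tlr7, Tlr4 and Tlr5 against the summed CPM of 4 leukocyte markers in each of 18 livers, both axes logarithmic, colored by group. FPC-LIPA liver 37 lies farthest right at 156 CPM, with the highest Tlr7 and Tlr4 and the lowest Tlr5.

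The genes that followed each receptor most closely differed between receptors. Likeness was measured as the SD over 18 livers of the log2 ratio of a gene to the receptor, over 11670 protein-coding genes with a mean of at least 1 CPM. Closest to Tlr13 were Fcgr4, Cd48 and H2-Eb1 (SD 0.328, 0.333 and 0.333), which encode an Fc receptor, a leukocyte adhesion molecule and a class II histocompatibility chain. Closest to Tlr7 were Fgl2, the scavenger receptor Msr1 and Klra2 (0.293, 0.334 and 0.351). The genes closest to Tlr4 included Klf6 and Ap1s2 (0.313 and 0.371).

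For the lipopeptide receptors the closest genes were Cd22, Hpgds and Dram1 for Tlr1 (0.384, 0.451 and 0.491) and Chst2, Emp3 and Myof for Tlr2 (0.382, 0.391 and 0.392). Cd22, on the list of B cell markers, was thus the nearest gene to Tlr1. For Tlr5 they were Abcg8, which with its partner exports cholesterol from hepatocytes into bile, Ssbp3 and Eef2k (0.274, 0.317 and 0.318). For Tlr3 they were Terf1, Srsf1 and Arl14ep (0.195, 0.200 and 0.200), but Tlr3 itself varied by an SD of only 0.305 over the 18 livers. These orders describe the libraries and carry no test, since all values come from the same 18 livers and share their group differences. Tlr6, Tlr8 and Tlr9 averaged under 1 CPM and were not searched.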

How the data were processed

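The authors trimmed paired-end reads, aligned them to GRCm38 (mm10) with HISAT2 (2.1.0) and counted them per gene with featureCounts (Subread), and the deposited values are raw read counts. Annotation version, strand setting and treatment of reads with several matches are not given in the sources used here, and unstranded and stranded kits are named without saying which library used which. The 18 columns of the 3 groups were used, each library from 1 mouse, and 5 further columns were not used here. Groups follow the labels. No 2 libraries of a group agreed within sampling noise (chi-square per degree of freedom 16.7 or more).

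Counts were tested with edgeR (4.0.16, R 4.3.3) by the quasi-likelihood test, each pair of groups fitted alone, after filterByExpr and TMM scaling, with Benjamini-Hochberg adjustment over all genes tested. DE meant adjusted p under 0.05 and at least 2-fold change. CPM are TMM-scaled, and CPM per kb divide by the merged exon length of GENCODE M21. On simulated data the fit recovered 187, 180 and 175 of 200 genes changed 4-fold, with 2, 6 and 4 false calls. These values are for FPC-GFP against CON-GFP, FPC-LIPA against FPC-GFP and FPC-LIPA against CON-GFP (14307, 14620 and 14433 genes). The simulated counts were drawn independently for each gene, without any profile shared by some livers of a group. Recovery of changes smaller than 4-fold was not simulated.

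Alternatives were other scalings (size factors, upper quartile, library size alone), DESeq2 (1.42.0), a robust fit, other filters, all 18 libraries in 1 fit, sample sheet numbers 55 to 68, removal of a trend with length, other thresholds, and each library left out. Leaving out livers 36, 37 and 39 together was chosen after seeing the data. All 10 genes are reported, with Tlr11 and Tlr12, and of each pathway list the DE genes (at most 4 per comparison) and the 2 most abundant. The 3 nearest genes are those with the lowest SD of the log2 ratio (prior count 2), of which 1 is not reported here. The genes, lists and tests were chosen with earlier results of these data known. No set was tested as a whole.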

Additional observations from a re-analysis of the deposited data

Results flagged for a closer look

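Tlr7 in FPC-LIPA liver 37 stood at 16.0 CPM, with the next liver of the group at 6.05 and the lowest at 2.37 CPM. The gap took 0.729 of the range of the group, above the critical value of 0.625 for 6 samples (Dixon's test). Of 30 groups of values examined (10 genes in 3 groups) 1 exceeded its critical value, and chance alone gives about 1 in 20. The same liver had the highest summed leukocyte markers (156 CPM) and 8.09% of its counts on ribosomal protein genes. The part of either in the Tlr7 level was not tested.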

How the results depend on the processing

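In FPC-GFP against CON-GFP, where 2 genes were DE, library size alone gave 4, while a filter of 1 CPM in 6 libraries, 1 fit of all 18 libraries, sheet numbers 55 to 68 and an adjusted p under 0.01 each gave 1. Over the whole table the DE genes went from 1030 to 1279, 776, 817, 767 and 686 in that order. Leaving out single libraries gave 1 to 4, with 1 (Tlr13) without CON-GFP 8, FPC-GFP 12 or FPC-GFP 19 and 4 without FPC-GFP 11. Without CON-GFP 2 the count stayed at 2, with Tlr7 in place of Tlr8. In FPC-LIPA against FPC-GFP, where 4 were DE, library size alone gave 2, and sheet numbers 55 to 68, an adjusted p under 0.01 and the removal of livers 36, 37 and 39 each gave 0 by edgeR (4, 7 and 6 at an unadjusted p under 0.05), while DESeq2 on all libraries gave 4. Over the whole table the DE genes fell as well, from 1671 of 14620 to 1016 of 14620 with library size alone. They were 96 of 14736 among sheet numbers 55 to 68, 53 of 14620 at an adjusted p under 0.01 and 116 of 15246 without livers 36, 37 and 39. Leaving out single libraries gave 2 to 4, with 2 (Tlr4 and Tlr7) without FPC-GFP 11. In FPC-LIPA against CON-GFP the count stayed between 5 and 7. Library size alone moved the median log2 fold change of all genes by 0.196, -0.132 and 0.0866 in the 3 comparisons in that order, which the counts under that scaling include.

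Signs changed for Tlr3, Tlr8 and Tlr5, none of which was DE in the comparison concerned. Tlr3 in FPC-GFP against CON-GFP was 0.111 with library size alone and -0.171 to 0.0162 without single libraries. Tlr8 in FPC-LIPA against FPC-GFP was -0.0675 with library size alone, -0.0312 with no filter, -0.0120 among sheet numbers 55 to 68 and -0.138 to 0.213 without single libraries. In FPC-LIPA against CON-GFP Tlr3 was -0.0190 among sheet numbers 55 to 68, -0.0073 without livers 36, 37 and 39 and -0.0453 to 0.169 without single libraries, and Tlr5, at -0.31 with all livers, was 0.0586 without livers 36, 37 and 39. No other estimate of the 9 genes changed sign under an alternative. The cause of these changes was not tested. Depth limited Tlr9, Tlr6 and Tlr8 most, and without cell-resolved data a change of cell number cannot be told apart from one of RNA per cell. No paired analysis was possible because the groups share no mouse number.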
